A study of Mus musculus with 6 samples.

Results

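The 43 genes described here handle lipoproteins, cholesterol and fatty acids. They were taken by name from a list covering lipases, apolipoproteins, lipoprotein receptors, sterol synthesis and its control, fatty acid synthesis and elongation, fatty acid carriers and lysosomal lipid export. All 43 were among the 18193 genes measured, and a gene with several probe sets was read on the brightest by mean signal. A probe set is the group of array probes that report one transcript. The tissue was the dissected subiculum and retrosplenial cortex of newborn C57BL/6 mice on postnatal day 1. One group was D6/Zbtb20S transgenic mice, in which the labels call this tissue CA1-transformed, and the other was their wildtype littermates. Each genotype had 3 arrays, and every array carried the pooled RNA of 7 animals. The sources do not state that the pools stem from different litters, and the p-values cover only how pools vary. Zbtb20 is a zinc finger transcription factor of developing hippocampal neurons, and the sources used here do not describe the element that drives the transgene or the cells it is active in.

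The developing brain makes nearly all of its own cholesterol, since lipoproteins of the blood do not cross the barrier around it. Sterol enzymes are switched on by SREBP transcription factors, which Scap carries from the endoplasmic reticulum and Insig proteins hold back when sterol is plentiful. Glial cells pass lipid to neurons on Apoe particles, which neurons take up through receptors of the LDL receptor family, and lipases release fatty acids that are bound, activated, elongated or burned.

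Values below are log2 signals of the arrays, so a difference of 1 is a change of 2-fold, and differences are D6/Zbtb20S minus wildtype. A gene was called at an adjusted p under 0.05 in limma, a linear model fitted over all 18193 genes with Benjamini-Hochberg adjustment, and every adjusted p for a gene is from that fit unless stated. Signals of different probe sets are not comparable as levels. Zbtb20 was read on 9 probe sets, of which 1422064_a_at passed (2.33 ± 0.37, SE; adjusted p = 0.00904 over all probe sets). The log2 signals of that set were 8.88, 9.10 and 8.94 in D6/Zbtb20S arrays and 6.44, 5.84 and 7.64 in wildtype arrays. The brightest Zbtb20 set by mean signal, 1437598_at, differed by -0.14 and did not pass (adjusted p = 0.825 over all probe sets). Differences of the Zbtb20 sets that did not pass ran from -0.37 to 0.85. The 3'-minus-5' difference of the actin control, a measure of RNA integrity, was 0.80 to 0.91 in D6/Zbtb20S arrays and wider in wildtype arrays, at 0.53, 0.88 and 1.31 for replicates 1, 2 and 3. The part of RNA integrity in the differences below was not tested for any gene. Markers of the dissected areas were read in wildtype tissue, and all 6 were lower in D6/Zbtb20S tissue (Tshz2, Nr4a2, Nts, Fn1, Cxcl14 and Slc17a6). The log2 of their summed linear signal was 9.42 to 9.67 in D6/Zbtb20S arrays and 11.98 to 12.24 in wildtype arrays. Such a sum weighs the brightest markers most. These 6 were chosen with earlier results of these data known, so their fall is not an independent check.

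Of the 43 lipid genes, 4 were higher and 6 lower in D6/Zbtb20S tissue, or 23.3% called in either direction, beside 7.71% of all genes tested. The 43 were chosen with earlier results of these data known, so the shares describe the list and do not test it. Among all genes 4.06% were called higher and 3.64% lower. All 43 exceeded their array's median signal in 3 or more of the 6 arrays, and of the 11838 genes that did so 10.6% were called. The genes that rose were Lpl, Elovl2, Npc2 and Lrp8, and those that fell were Insig1, Acsl4, Fabp3, Cyp46a1, Scd1 and Lss. Only Lpl among the 43 changed by more than 2-fold. The median difference of the 43 was -0.08, beside -0.02 over all genes. Of the 43 differences 16 were positive and 27 negative, beside 8346 and 9847 over all 18193 genes. The arrays of the genotypes did not overlap for 18 of the 43 genes (41.9%, beside 26.1% of all genes). In 12 of them (27.9% of the 43, beside 13.2% of all genes) all D6/Zbtb20S arrays lay below all wildtype arrays. In 6 they lay above (14%, beside 12.9% of all genes).

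**Figure D1:**
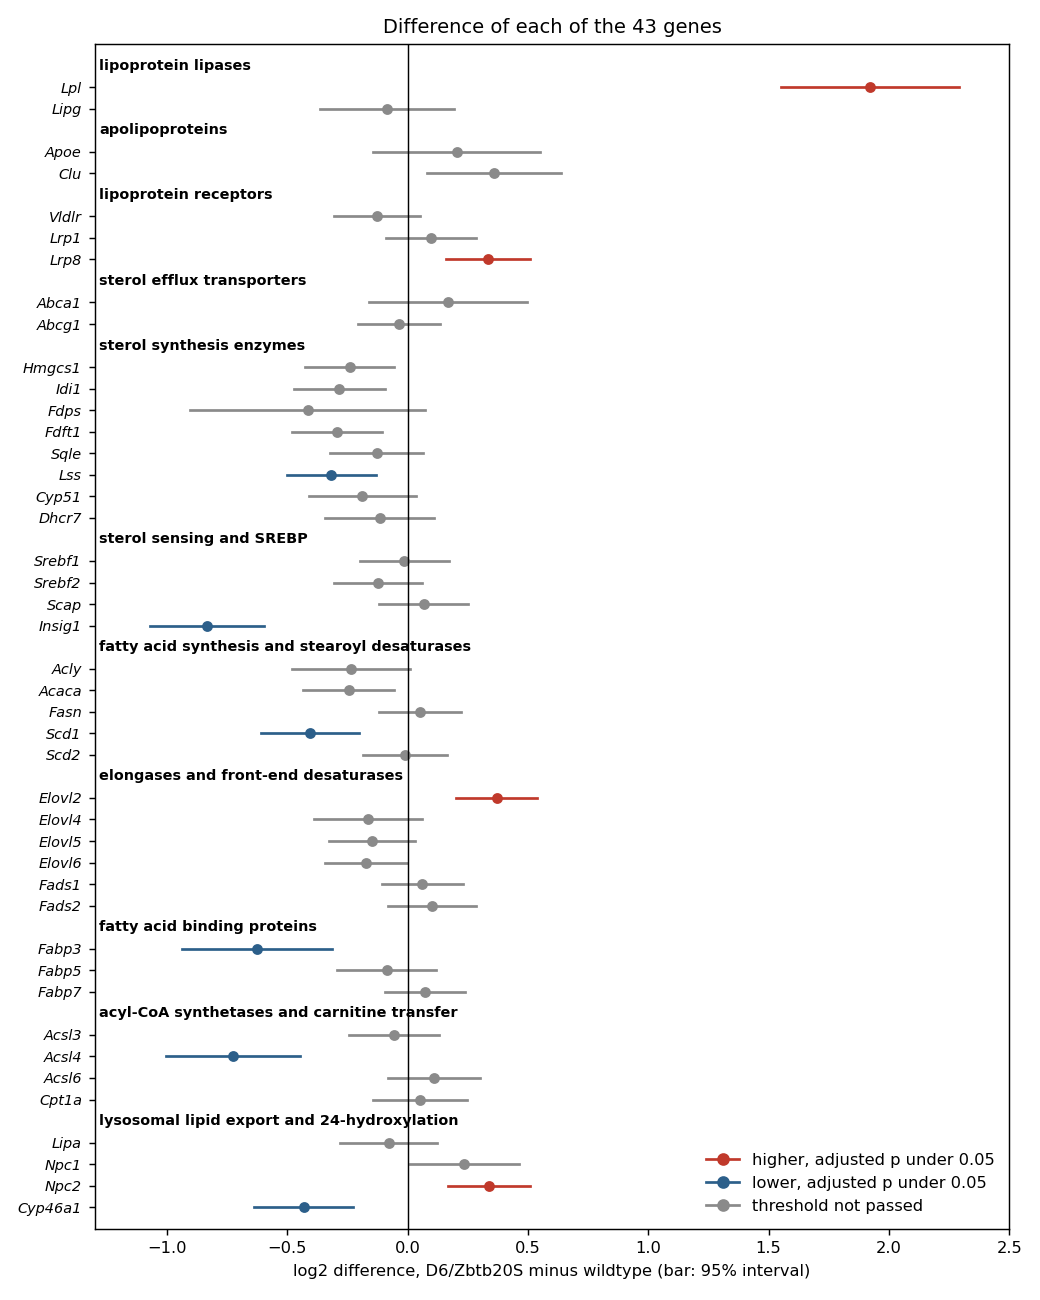
Log2 difference (D6/Zbtb20S minus wildtype) of each of the 43 lipid genes, by role, with 95% intervals from the limma fit (bars) over 3 arrays per genotype. Lpl stands at 1.92, the other called genes lie between -0.83 and 0.37, and all 8 sterol synthesis enzymes lie left of 0.

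The firmness of the 10 calls differed. Lpl, Insig1 and Acsl4 passed in each of the 6 fits that left out 1 array. Elovl2, Npc2 and Cyp46a1 passed in 3 of those fits, Fabp3 in 2, Scd1 and Lrp8 in 1, and Lss in none. With an ordinary linear model, which takes each gene's spread from its own arrays alone and called 1.47% of all genes, Elovl2 alone of the 43 passed, and the other 9 had adjusted p from 0.0594 (Lpl) to 0.218 (Fabp3).

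**Figure D2:**
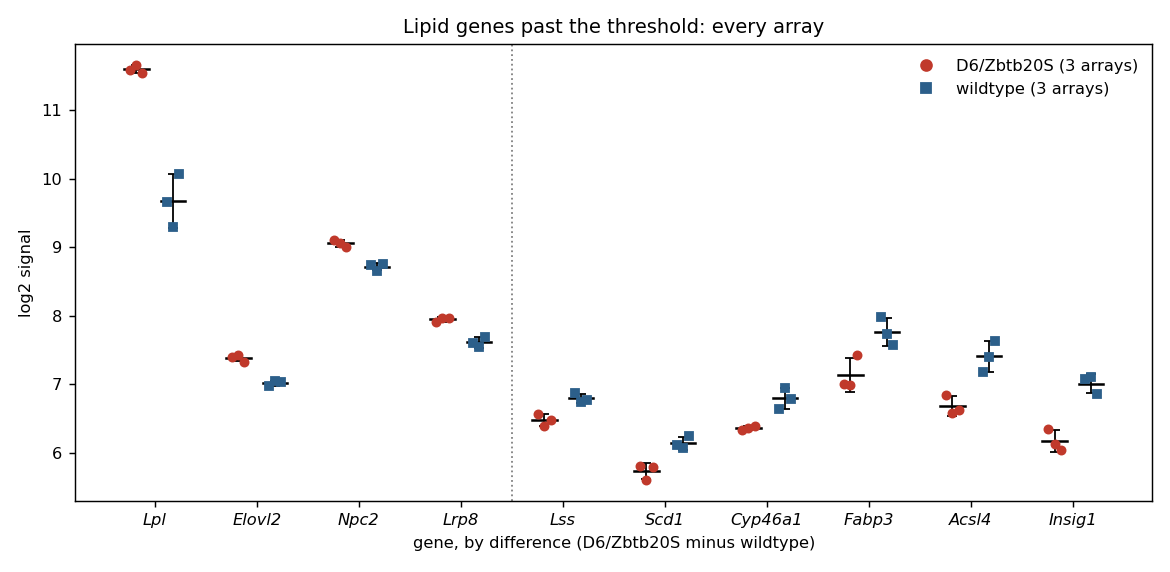
Log2 signal of the 10 called lipid genes in every array, with D6/Zbtb20S (circles) left of wildtype (squares), and the mean and SD of each group in black. Levels of different genes are not comparable. The 3 arrays of one genotype lie apart from those of the other for each of the 10 genes, with the widest gap for Lpl.

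Among the lipases, lipoprotein lipase rose sharply. Lpl, the enzyme that frees fatty acids from the triglyceride of lipoproteins, read 11.59, 11.66 and 11.54 in D6/Zbtb20S arrays, against 9.67, 9.29 and 10.07 in wildtype arrays. The D6/Zbtb20S arrays lay within 0.12 of each other and all above the wildtype arrays, which spread over 0.78. Lpl was 3.79-fold higher (1.92 ± 0.16, SE; 95% interval 1.55 to 2.29; adjusted p = 9.42e-05). Its second probe set, 1431056_a_at, gave 8.04, 7.90 and 8.22 in D6/Zbtb20S arrays and 5.60, 5.24 and 6.05 in wildtype arrays, a difference of 2.42 ± 0.19 (SE; adjusted p = 0.000284 over all probe sets). On both probe sets wildtype replicate 3 was the highest wildtype array, and without it the first difference was 2.12. In whole tissue, more cells that make a transcript and more transcript per cell cannot be told apart. Lipg, the endothelial lipase, did not pass (-0.08, 95% interval -0.36 to 0.19, adjusted p = 0.77), and its mean of 3.81 in D6/Zbtb20S tissue was under the array median.

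Microglia, which can also make Lpl, Apoe and Npc2, had higher markers in the same arrays. Of 11 microglial genes 4 were higher, namely Tyrobp, Cx3cr1, Ctss and Fcrls, and all 11 differences were positive, with a median of 0.40. The largest was 0.87, for Cx3cr1. The log2 of the list's summed linear signal was 9.67 to 9.88 in D6/Zbtb20S arrays and 9.29 to 9.37 in wildtype arrays. Of its members 1, Aif1, was under the array median in both genotypes. Of 13 endothelial and mural markers 1 was lower (Slc2a1), and in limma no choroid plexus or meningeal marker, of 8 each, passed or had an unadjusted p under 0.05. The part of microglial RNA in the differences of Lpl, Apoe and Npc2 was not tested.

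Neither apolipoprotein passed. Apoe, the main protein of brain lipoprotein particles, read 8.68, 8.60 and 9.16 in D6/Zbtb20S arrays and 8.83, 8.47 and 8.52 in wildtype arrays, so the genotypes overlapped (0.20, 95% interval -0.14 to 0.55, adjusted p = 0.525). Clu, also called apolipoprotein J, averaged 8.63 ± 0.21 in D6/Zbtb20S tissue and 8.27 ± 0.17 in wildtype tissue (SD, n = 3 arrays each), a difference of 0.36 (95% interval 0.08 to 0.64, adjusted p = 0.128). The 3 other Clu probe sets had differences from 0.17 to 0.22, and none of them passed.

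Of the receptors, 1 rose. Lrp8, the Apoe receptor 2 that also binds reelin, read 7.91, 7.97 and 7.96 in D6/Zbtb20S arrays and 7.60, 7.54 and 7.69 in wildtype arrays. The genotypes did not overlap, and Lrp8 was 1.26-fold higher (0.34 ± 0.08, SE; adjusted p = 0.028). Its call held without wildtype replicate 3 and was lost when any other array was left out (adjusted p from 0.0676 to 0.139). The other Lrp8 probe set above the array median, 1440882_at, differed by 0.28 and did not pass (adjusted p = 0.109 over all probe sets).

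Vldlr, the second reelin receptor and a receptor for triglyceride-rich particles, gave different answers by probe set. On the set with the highest signal it averaged 8.05 in D6/Zbtb20S tissue and 8.18 in wildtype tissue and did not pass (-0.13, 95% interval -0.31 to 0.05, adjusted p = 0.432). On 1442169_at it read 5.52, 5.46 and 5.56 in D6/Zbtb20S arrays and 4.83, 5.13 and 4.93 in wildtype arrays, and this set passed as higher (0.55 ± 0.10, SE; adjusted p = 0.0133 over all probe sets). Sets 1438258_at and 1451156_s_at also had all D6/Zbtb20S arrays above the wildtype arrays, with differences of 0.74 and 0.40. Neither passed (adjusted p = 0.0777 and 0.0521 over all probe sets), and 1451156_s_at was under the array median in both genotypes. The remaining sets differed by -0.01 and 0.13. On 1438258_at wildtype replicates 1, 2 and 3 read 5.33, 5.80 and 6.26, the same order as their 3'-minus-5' actin differences, and the part of RNA integrity was not tested. Where each set lies along the Vldlr transcript was not analysed here. Lrp1, a large receptor that clears Apoe particles, did not pass (0.10, 95% interval -0.09 to 0.29), nor did the sterol exporters Abca1 (0.17, -0.16 to 0.49) and Abcg1 (-0.04, -0.21 to 0.13).

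**Figure D3:**
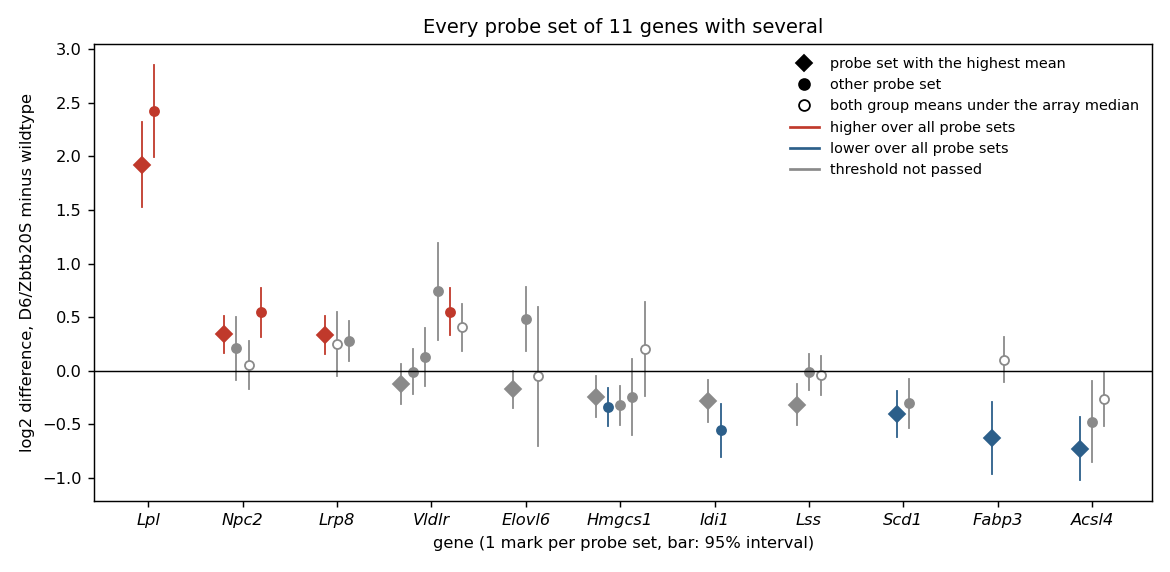
Log2 difference (D6/Zbtb20S minus wildtype) and 95% interval for all 35 probe sets of 11 lipid genes, coloured by the call over all probe sets. Diamonds mark the set that represents the gene, and open marks those with both group means under the array median. The Lpl sets lie at 1.92 and 2.42, while the Vldlr sets lie between -0.13 and 0.74.

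The sterol synthesis enzymes had small differences in one direction. All 8 were negative, from -0.41 for Fdps to -0.12 for Dhcr7, with a median of -0.26 beside -0.02 over all genes. One of them, Lss, fell at the threshold, and at an unadjusted p under 0.05 there were 4 in limma, all lower (Hmgcs1, Idi1, Fdft1 and Lss). Of all genes 20.3% had such a p, and 9.72% had it with a negative difference. All 8 differences stayed negative in each of the 15 alternative fits, with medians from -0.28 to -0.16. The number of called enzymes ran from 0 to 4 over those fits.

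Lss, lanosterol synthase, which closes the sterol ring, read 6.57, 6.39 and 6.48 in D6/Zbtb20S arrays and 6.87, 6.75 and 6.77 in wildtype arrays. The genotypes did not overlap, and Lss was 1.25-fold lower (-0.32 ± 0.08, SE; adjusted p = 0.0488). It did not pass in any fit that left out 1 array (adjusted p from 0.0713 to 0.166), nor when adjusted over all probe sets (0.0731). Its probe set 1420013_s_at differed by -0.01.

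Hmgcs1, the cytosolic HMG-CoA synthase at the head of the pathway, read 10.60, 10.56 and 10.52 in D6/Zbtb20S arrays and 10.69, 10.83 and 10.89 in wildtype arrays. Those arrays did not overlap, yet the difference of -0.24 (95% interval -0.43 to -0.05) did not pass (adjusted p = 0.127). Another Hmgcs1 set, 1433444_at, passed as lower (-0.34, adjusted p = 0.0434 over all probe sets). Idi1, which isomerises the isoprene unit, averaged 7.36 ± 0.03 in D6/Zbtb20S tissue and 7.64 ± 0.11 in wildtype tissue (SD, n = 3 each; adjusted p = 0.076). Its other set, 1423804_a_at, read 7.17, 7.08 and 6.88 in D6/Zbtb20S arrays and 7.44, 7.73 and 7.62 in wildtype arrays and passed as lower (-0.56 ± 0.11, SE; adjusted p = 0.0219 over all probe sets). For Fdft1, squalene synthase, the means were 8.60 ± 0.07 in D6/Zbtb20S tissue and 8.90 ± 0.09 in wildtype tissue (SD, n = 3 each; adjusted p = 0.0654).

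The remaining enzymes overlapped between genotypes. Fdps, farnesyl diphosphate synthase, read 7.76, 7.64 and 7.93 in D6/Zbtb20S arrays and 8.72, 8.20 and 7.66 in wildtype arrays 1, 2 and 3. Its wildtype spread (SD 0.53) was larger than its difference of -0.41, and it passed without wildtype replicate 3 (-0.68, adjusted p = 0.0226). The wildtype array lowest in Fdps had the highest 3'-minus-5' actin difference (1.31) and the wildtype array highest in Fdps the lowest (0.53), and the part of RNA integrity in this was not tested. Sqle, squalene epoxidase, differed by -0.13 (95% interval -0.32 to 0.07), the demethylase Cyp51 by -0.19 (-0.41 to 0.03) and the last-step reductase Dhcr7 by -0.12 (-0.34 to 0.11).

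In sterol sensing, Insig1 fell. Insig1, which retains the SREBP carrier and is itself switched on by SREBP, read 6.35, 6.14 and 6.04 in D6/Zbtb20S arrays and 7.07, 7.10 and 6.85 in wildtype arrays. The genotypes stood well apart, and Insig1 was 1.78-fold lower (-0.83 ± 0.11, SE; 95% interval -1.07 to -0.59; adjusted p = 0.00111). Without each array in turn its difference stayed between -0.92 and -0.77, with adjusted p up to 0.00819. The SREBP genes themselves did not pass: Srebf2, the main activator of sterol genes, differed by -0.12 (95% interval -0.31 to 0.06) and Srebf1, more tied to fatty acid genes, by -0.01 (-0.20 to 0.17). Their carrier Scap differed by 0.07 (-0.12 to 0.25). In the same comparison the oligodendrocyte lineage, whose cells make much sterol for myelin, had 4 of 10 markers lower (Olig1, Olig2, Mbp and Cnp). Of the 10 differences 8 were negative and 2 positive, with a median of -0.27, and the other 6 markers did not pass. The log2 of the list's summed linear signal was 9.55 to 9.73 in D6/Zbtb20S arrays and 9.9999 to 10.25 in wildtype arrays, with Mog and Mag under the array median in both. The part of this lineage in the sterol gene differences was not tested.

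**Figure D4:**
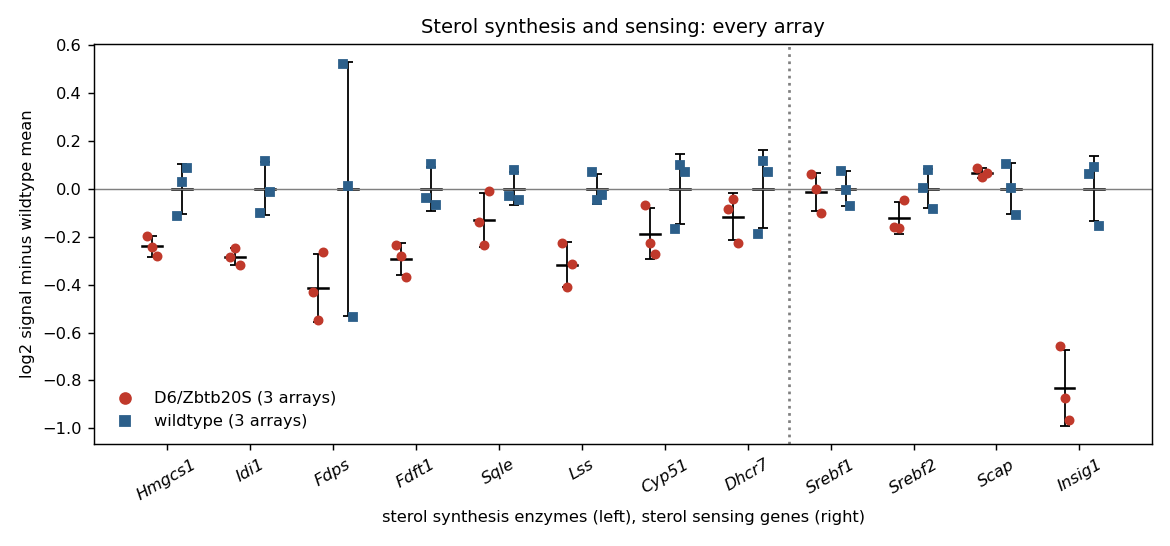
Log2 signal minus the wildtype mean of each gene for 8 sterol synthesis enzymes and 4 sterol sensing genes, with every array shown, D6/Zbtb20S (circles) left of wildtype (squares), and the mean and SD in black. Insig1 is lowest at -0.83, the enzyme means lie between -0.41 and -0.12, and wildtype arrays of Fdps spread widely.

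The promoters of Insig1, Hmgcs1, Lss and Idi1 are shown because all D6/Zbtb20S arrays lay below the wildtype arrays for these sterol genes. The same held for Fdft1, whose promoter is not printed here. Each is the 250 bases before the transcription start in RefSeq on GRCm38.p6, 5′ to 3′. Capitals mark the CCAAT box (CCAAT, either strand), bound by NF-Y, a factor known to act with SREBP at such promoters, and the sterol regulatory element (TCACNCCAC, either strand), which SREBP binds.
Insig1, chr5:28071162-28071411, plus strand: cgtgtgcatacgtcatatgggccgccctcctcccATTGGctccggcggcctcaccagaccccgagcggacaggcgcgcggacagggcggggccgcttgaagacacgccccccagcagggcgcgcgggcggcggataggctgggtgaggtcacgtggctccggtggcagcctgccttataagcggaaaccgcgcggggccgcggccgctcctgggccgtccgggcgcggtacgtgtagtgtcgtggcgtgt
Hmgcs1, chr13:119690101-119690350, plus strand: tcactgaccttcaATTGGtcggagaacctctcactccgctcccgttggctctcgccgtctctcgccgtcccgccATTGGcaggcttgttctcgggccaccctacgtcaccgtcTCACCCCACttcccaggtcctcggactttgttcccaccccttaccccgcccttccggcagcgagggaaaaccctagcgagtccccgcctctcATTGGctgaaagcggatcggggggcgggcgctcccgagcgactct
Lss, chr10:76531355-76531604, plus strand: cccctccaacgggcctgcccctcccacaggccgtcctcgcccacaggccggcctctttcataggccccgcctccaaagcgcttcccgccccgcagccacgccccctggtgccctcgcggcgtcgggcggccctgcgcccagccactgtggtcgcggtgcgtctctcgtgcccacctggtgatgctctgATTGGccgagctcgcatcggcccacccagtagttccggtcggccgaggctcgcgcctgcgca
Idi1, chr13:8885356-8885605, plus strand: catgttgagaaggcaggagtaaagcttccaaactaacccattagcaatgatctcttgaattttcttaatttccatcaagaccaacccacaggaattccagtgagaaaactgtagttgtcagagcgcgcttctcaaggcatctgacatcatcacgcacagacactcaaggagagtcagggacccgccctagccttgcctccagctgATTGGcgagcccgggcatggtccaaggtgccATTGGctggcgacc

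The sterol regulatory element was found in 1 of these windows, that of Hmgcs1, on the plus strand 137 to 129 bases before the start. It was found in 1 of the 44 windows of the 31 lipid genes with a promoter entry (2.27%), beside 1.05% of all 32851 windows of that length. The CCAAT box was found in all 4 windows printed, in 3 places for Hmgcs1, 2 for Idi1 and 1 each for Insig1 and Lss. Since a gene can have several windows, its share was taken over windows, and 20 of the 44 windows of the lipid genes (45.5%) held it, beside 33.8% of all windows. Each of the 5 sterol enzymes with an entry held it in at least 1 window. The motifs do not overlap each other in these windows, and a match is a description of the letters only. Only these exact letters within 250 bases were searched, so a window without a match was not shown to lack other forms of the element.

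Of the fatty acid synthesis genes, Scd1 fell. Scd1, a stearoyl-CoA desaturase that makes monounsaturated fatty acids, read 5.81, 5.60 and 5.79 in D6/Zbtb20S arrays and 6.11, 6.06 and 6.25 in wildtype arrays. The genotypes did not overlap, and Scd1 was 1.32-fold lower (-0.40 ± 0.09, SE; adjusted p = 0.0248). It passed without D6/Zbtb20S replicate 3 but with no other array left out (adjusted p from 0.0528 to 0.0948). Its second set also lay lower in every D6/Zbtb20S array (-0.30, adjusted p = 0.143 over all probe sets). Scd2, the desaturase prominent in the newborn brain, averaged 10.56 ± 0.03 in D6/Zbtb20S tissue and 10.57 ± 0.08 in wildtype tissue (SD, n = 3 each), with a 95% interval of the difference from -0.19 to 0.17.

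The chain-building enzymes did not pass. Acaca, acetyl-CoA carboxylase 1, read 7.20, 7.19 and 7.25 in D6/Zbtb20S arrays and 7.33, 7.55 and 7.50 in wildtype arrays, without overlap (-0.24, 95% interval -0.43 to -0.06, adjusted p = 0.128). Acly, which supplies acetyl-CoA from citrate, differed by -0.23 (-0.48 to 0.01). Fasn, fatty acid synthase, differed by 0.05 (-0.12 to 0.22).

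Among elongases and desaturases of long chains, Elovl2 rose. Elovl2, which elongates polyunsaturated fatty acids on the way to docosahexaenoic acid, read 7.40, 7.42 and 7.33 in D6/Zbtb20S arrays and 6.97, 7.04 and 7.03 in wildtype arrays. Spread within each genotype was under 0.1, and Elovl2 was 1.29-fold higher (0.37 ± 0.08, SE; adjusted p = 0.0151). It missed the threshold without D6/Zbtb20S replicate 1 or 2 or wildtype replicate 2 (adjusted p from 0.0592 to 0.0644). Fads1 and Fads2, the desaturases of the same route, differed by 0.06 (95% interval -0.11 to 0.23) and 0.10 (-0.08 to 0.29).

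The other elongases did not pass. Elovl5 differed by -0.15 (95% interval -0.33 to 0.03) and Elovl6 by -0.17 (-0.34 to -0.004), and for each all D6/Zbtb20S arrays lay below the wildtype arrays. On the other Elovl5 set, 1415840_at, the genotypes overlapped and the difference was 0.0002. Elovl6 changed sign by probe set, since 1417403_at was at 0.48 with all D6/Zbtb20S arrays above (adjusted p = 0.0784 over all probe sets). Elovl4, the very-long-chain elongase, was at -0.17 (-0.39 to 0.06) on its main set and at 0.50 on 1451308_at (adjusted p = 0.246 over all probe sets). Radial glia and astrocytes, the cells known for Elovl2 and Fabp7, had 3 of 18 markers lower (Ptprz1, Slc4a4 and Sox2), but 8 of the 18 differences were positive and the median was -0.03. Gfap (0.56) and Aqp4 (0.37) had the largest positive differences and did not pass. The log2 of the list's summed linear signal was 12.32 to 12.41 in D6/Zbtb20S arrays and 12.48 to 12.67 in wildtype arrays, with S100b under the array median in both. The sum weighs bright markers such as Ptprz1 (mean 9.40 in D6/Zbtb20S tissue and 10.11 in wildtype tissue) most. The part of glial RNA in the Elovl2 difference was not tested.

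Of the fatty acid binding proteins, which carry fatty acids inside cells, the neuronal form Fabp3 fell. Fabp3 read 7.002, 6.991 and 7.42 in D6/Zbtb20S arrays and 7.98, 7.74 and 7.58 in wildtype arrays. In the same wildtype arrays the 3'-minus-5' actin difference was 0.53, 0.88 and 1.31, and the part of RNA integrity in the Fabp3 difference was not tested. The highest D6/Zbtb20S array came within 0.16 of the lowest wildtype array, and Fabp3 was 1.54-fold lower (-0.63 ± 0.14, SE; adjusted p = 0.0238). It kept its call without D6/Zbtb20S replicate 3 or wildtype replicate 3 and lost it without any of the other arrays (adjusted p from 0.0732 to 0.116). It also lost it when its probe sets were averaged (-0.26, adjusted p = 0.18). Its other set, 1444844_at, was under the array median in both genotypes and differed by 0.10. The glial form Fabp7 averaged 11.94 ± 0.03 in D6/Zbtb20S tissue and 11.87 ± 0.04 in wildtype tissue (SD, n = 3 each; difference 0.07, 95% interval -0.09 to 0.24). Fabp5, which is made by neurons and glia, differed by -0.09 (-0.29 to 0.12).

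In fatty acid activation, Acsl4 fell. Acsl4, an acyl-CoA synthetase that prefers arachidonic acid, read 6.85, 6.58 and 6.62 in D6/Zbtb20S arrays and 7.18, 7.40 and 7.64 in wildtype arrays. The 3'-minus-5' actin difference of those wildtype arrays was 0.53, 0.88 and 1.31, and the part of RNA integrity in the Acsl4 difference was not tested. The genotypes did not overlap, and Acsl4 was 1.65-fold lower (-0.73 ± 0.12, SE; 95% interval -1.002 to -0.45; adjusted p = 0.00612). With 1 array left out its difference ran from -0.84 to -0.61, with adjusted p up to 0.0315. Its 2 other probe sets differed by -0.48 and -0.26 and did not pass, and the set at -0.26 was under the array median in both genotypes. Acsl3 differed by -0.06 (95% interval -0.24 to 0.13) and Acsl6, a form of neurons and astrocytes, by 0.11 (-0.08 to 0.30). Cpt1a, which admits fatty acids to mitochondria for oxidation, differed by 0.05 (-0.14 to 0.25).

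Of the lysosomal and cholesterol removal genes, Npc2 rose and Cyp46a1 fell. Npc2, a soluble protein that lifts cholesterol from lysosomal membranes, read 9.10, 9.06 and 9.01 in D6/Zbtb20S arrays and 8.75, 8.66 and 8.75 in wildtype arrays. Every D6/Zbtb20S array was above every wildtype array, and Npc2 was 1.27-fold higher (0.34 ± 0.08, SE; adjusted p = 0.0243). Its set 1455768_at also passed as higher (0.54 ± 0.10, SE; adjusted p = 0.0179 over all probe sets). Another Npc2 set, 1416901_at, was brighter than 1455768_at. There the genotypes overlapped, and the set did not pass (0.21, adjusted p = 0.457 over all probe sets). Npc2 missed the threshold when D6/Zbtb20S replicate 1 or 2 or wildtype replicate 2 was dropped (adjusted p from 0.0816 to 0.123) and with arrays set to equal medians (0.0595).

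Npc1, the membrane partner that receives cholesterol from Npc2, read 4.59, 4.47 and 4.49 in D6/Zbtb20S arrays and 4.10, 4.28 and 4.46 in wildtype arrays, without overlap but close together (0.24, 95% interval 0.01 to 0.46, adjusted p = 0.226). Lipa, the lysosomal acid lipase, differed by -0.08 (-0.28 to 0.12). Cyp46a1, the neuronal enzyme that turns cholesterol into 24-hydroxycholesterol for removal, read 6.33, 6.37 and 6.39 in D6/Zbtb20S arrays and 6.64, 6.95 and 6.79 in wildtype arrays. No arrays overlapped, and Cyp46a1 was 1.35-fold lower (-0.43 ± 0.09, SE; adjusted p = 0.019). It missed the threshold without D6/Zbtb20S replicate 1 or 2 or wildtype replicate 2 (adjusted p from 0.0626 to 0.0906). Among 13 neuronal markers Snap25, Slc17a6 and Gad1 were lower and Neurod2 higher. The log2 of that list's summed linear signal was 13.18 to 13.26 in D6/Zbtb20S arrays and 13.32 to 13.34 in wildtype arrays. The part of neuronal RNA in the Cyp46a1 difference was not tested.

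Beyond the 43, the same pathways held 90 measured genes in 4 further lists. Of these 3 were higher and 3 lower, or 6.67%, close to the 7.71% of all genes. The medians of the lists lay between -0.08 and -0.03. In the list of 16 sterol synthesis and sensing genes 2 rose. Of the 16 differences 10 were negative, beside 9847 over all 18193 genes. All D6/Zbtb20S arrays lay below all wildtype arrays for 3 of the 16 and above for 2, beside 13.2% and 12.9% of all genes. The 3 that lay below did not pass. An unadjusted p under 0.05 in limma was reached by 5 of the 16, beside 20.3% of all genes. Sc5d, the sterol desaturase that acts just before Dhcr7, read 6.28, 6.13 and 6.17 in D6/Zbtb20S arrays and 5.44, 5.62 and 5.71 in wildtype arrays, and was 1.52-fold higher (0.60 ± 0.09, SE; adjusted p = 0.00353). Neither of its other probe sets passed. Mylip, a ubiquitin ligase that targets lipoprotein receptors including Vldlr and Lrp8 for degradation, was 1.36-fold higher (0.45 ± 0.09, SE; adjusted p = 0.0183), though it kept its call in only 2 of 6 fits on 5 arrays (adjusted p up to 0.0824).

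In the list of 31 lipoprotein, lipase and sterol transport genes, Osbpl1a was called. This oxysterol-binding protein of late endosomes read 7.26, 7.21 and 7.35 in D6/Zbtb20S arrays and 8.56, 8.73 and 8.60 in wildtype arrays, and was 2.56-fold lower (-1.36 ± 0.08, SE; adjusted p = 1.56e-05). Its other set passed as lower too (-0.66, adjusted p = 0.00946 over all probe sets). Of 24 further fatty acid synthesis, elongation and activation genes, Thrsp and Hsd17b12 were lower. Thrsp, a thyroid hormone-responsive protein tied to fatty acid synthesis, read 4.24, 4.21 and 4.49 in D6/Zbtb20S arrays and 5.67, 5.19 and 5.21 in wildtype arrays and was 2.07-fold lower (-1.05 ± 0.14, SE; adjusted p = 0.00129). Neither of its other probe sets passed. Hsd17b12, the ketoacyl-CoA reductase that works with every elongase, was 1.30-fold lower (-0.37 ± 0.08, SE; adjusted p = 0.0252), but kept its call in 1 of 6 fits on 5 arrays (adjusted p up to 0.0938). Of 19 mitochondrial oxidation genes the carnitine carrier Slc25a20 was 1.34-fold higher (0.42 ± 0.09, SE; adjusted p = 0.0189), and it passed in 2 of those fits (adjusted p up to 0.0887).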

How the data were processed

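RNA of 6 tissue pools was measured on 1-colour Affymetrix 3' expression arrays. The deposited table holds log2 signals per probe set, and the submitters' processing notes name RMA and limma, with versions not given in the sources used here. The log2 scale was inferred from the range of values. Medians of the arrays ran from 3.83 to 3.97, and which scaling or centring came last is unknown. Of 45101 probe sets 64 controls were left out, and 34945 had 1 gene symbol in the platform annotation, 932 several and 9160 none. Each of 18193 genes was represented by the probe set whose mean signal across the 6 arrays was highest. Groups came from the titles in the labels.

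The genotype difference came from lmFit and eBayes of limma 3.58.1 under R 4.3.3, with 1 coefficient per group and no covariates. P-values were adjusted over the 18193 genes or, where stated, the 45037 probe sets. The fit was tested on simulated data with independent noise for every gene and array. That simulation held no effect shared by the genes of an array, so it does not show how pools or RNA integrity bear on the calls. The 43 genes and all lists were chosen with earlier results of these data known, and the genes named from the further lists are those past the threshold. Other scalings, models, filters, probe set rules and left-out arrays were tried. Motifs were searched in RefSeq promoters, which 31 of the 43 genes have an entry for in the table used. Figures used matplotlib 3.10.9. Precision is limited by the number of arrays, 3 per genotype.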

Additional observations from a re-analysis of the deposited data

How the results depend on the processing

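The counts of 4 higher and 6 lower lipid genes depended on the processing. They were 1 and 0 with an ordinary linear model, 5 and 10 under array weights, and 1 and 2 at a threshold of 0.01. Over all genes, 1402 were called as reported, 267 by the ordinary model, 2707 under array weights, 777 without wildtype replicate 2 and 837 without D6/Zbtb20S replicate 1. With 1 array left out, 1 to 4 lipid genes were higher and 2 to 5 lower, with 1 and 2 without D6/Zbtb20S replicate 1, D6/Zbtb20S replicate 2 or wildtype replicate 2, and 3 and 3 without wildtype replicate 1. Same-numbered replicates did not deviate together (correlations of -0.215, 0.175 and -0.00814 for numbers 1, 2 and 3), and 1 of the 3 D6/Zbtb20S arrays correlated best with its own number. The replicate block gave 2 higher and 5 lower lipid genes and 0 called sterol enzymes, with Lrp8 (adjusted p = 0.0608), Npc2 (0.0578) and Lss (0.0699) lost.

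Of the sterol synthesis enzymes 1 was called as reported, 4 under array weights, 2 with an intensity trend, and 0 with equal array medians, with the ordinary model or when adjusted over all probe sets, an alternative added after seeing the data. With 1 array left out 0 to 1 was called, the 1 being Fdps without wildtype replicate 3.

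The 90 further pathway genes, with 3 higher and 3 lower, gave 7 and 13 under array weights, 0 and 1 with the ordinary model, 3 and 5 with equal medians, 3 and 7 after quantile normalization, 4 and 5 with the filter on dim probe sets. With 1 array left out, 1 to 4 were higher and 2 to 5 lower.

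Signs turned only in genes that had not passed. Averaging all probe sets of a gene turned Vldlr (0.28), Elovl4 (0.17), Scd2 (0.15), Elovl6 (0.0857), Lipa (0.0256), Lipg (0.0095) and Cpt1a (-0.0751). Srebf1 turned under array weights (0.0065) and Scd2 after quantile normalization (0.0804). With 1 array left out, Srebf1 ran from -0.0508 to 0.0289, Scd2 from -0.0487 to 0.0306 and Lipa from -0.129 to 0.00081. The causes were not tested.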
